A study of Mus musculus with 13 samples.

Results

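Pltp, Asb2 and Myo1f are 3 genes whose RNA lay far above the vehicle level in alloresponding CD4+ T cells of mice given either of a pair of ligands of the aryl hydrocarbon receptor (AhR). They were chosen from results of these same arrays because they rose strongly with both ligands, so their differences from vehicle are given here as a description and carry no test. Each was represented by 1 probe set naming a single symbol, 3 of the 22180 genes with such a probe set, and all 3 were among the 12710 genes that passed the filter on low values. Pltp passed that filter through its treated arrays, since 2 of its 4 vehicle arrays lay above the floor and 4 arrays were needed.

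The cells came from a graft-versus-host model, in which parental donor T cells attack an F1 host. The donor splenocytes (C57Bl/6) carried CFSE, which is diluted as cells divide, and were given by vein to B6D2F1 mice 10 to 12 weeks old. The vehicle group (4 arrays) received vehicle on days 0 to 2, the TCDD group (4 arrays) a single injection of 15 µg/kg 2,3,7,8-tetrachlorodibenzo-p-dioxin on day 0, and the Cl-BBQ group (5 arrays) 10 mg/kg of Cl-BBQ on days 0 to 2. On day 3 (72 h), CD4+ T cells past 2 or more divisions were sorted from spleen and lymph node, so only cells that had responded were measured. The ligands were given to the whole animal, in doses and schedules that differ. The labels call the arrays biological replicates and do not say whether animals were pooled.

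AhR is a transcription factor held in the cytoplasm until a ligand binds it. It then enters the nucleus, pairs with ARNT and binds DNA at sites with the core GCGTG. Pltp encodes phospholipid transfer protein, a secreted protein that moves phospholipids between lipoproteins and is a known target of the liver X receptors (LXR). Asb2 encodes a substrate-recognition subunit of a cullin 5 ubiquitin ligase, whose best known substrates are the filamins that crosslink actin. Myo1f encodes a long-tailed class I myosin, an actin motor found mainly in immune cells, where it acts in adhesion and migration.

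The windows before the start sites are shown because the 3 genes moved together with AhR ligands, and the capitals mark the core GCGTG on either strand. They are the 250 bases before each RefSeq start, on the strand of the gene, in build GRCm38.p6. Pltp lies on the minus strand at chr2:164857709-164857958. Asb2 has 2 listed starts on the minus strand, with the windows chr12:103356002-103356251 (upstream start) and chr12:103338391-103338640 (downstream start). Myo1f lies on the plus strand at chr17:33555457-33555706.
Pltp: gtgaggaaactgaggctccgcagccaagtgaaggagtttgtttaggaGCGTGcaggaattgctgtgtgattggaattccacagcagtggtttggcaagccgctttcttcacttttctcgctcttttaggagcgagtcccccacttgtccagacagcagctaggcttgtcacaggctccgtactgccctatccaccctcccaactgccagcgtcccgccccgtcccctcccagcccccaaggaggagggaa
Asb2 upstream start: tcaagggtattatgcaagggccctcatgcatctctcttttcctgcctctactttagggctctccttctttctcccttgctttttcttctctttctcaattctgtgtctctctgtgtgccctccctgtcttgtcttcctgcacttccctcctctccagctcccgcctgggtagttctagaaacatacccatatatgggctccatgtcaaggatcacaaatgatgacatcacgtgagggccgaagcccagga
Asb2 downstream start: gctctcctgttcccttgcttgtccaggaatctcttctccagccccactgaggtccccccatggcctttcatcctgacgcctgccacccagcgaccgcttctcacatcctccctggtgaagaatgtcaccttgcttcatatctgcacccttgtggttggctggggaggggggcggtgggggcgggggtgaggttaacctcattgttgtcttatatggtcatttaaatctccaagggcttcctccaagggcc
Myo1f: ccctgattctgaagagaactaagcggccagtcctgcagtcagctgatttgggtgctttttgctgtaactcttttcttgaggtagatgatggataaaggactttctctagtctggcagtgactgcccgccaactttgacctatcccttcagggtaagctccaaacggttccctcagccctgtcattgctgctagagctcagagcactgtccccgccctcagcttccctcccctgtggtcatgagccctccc
The core GCGTG was present 1 time, in the window of Pltp on the strand of the gene, and its first base lay 203 bases before the start. The same letters were found on either strand in 28.2% of all 32851 windows of this length. The longer form TNGCGTG, which contains the core, was in none of the 4 windows and in 4.10% of all windows. The direct repeat of AGGTCA bound by LXR (DR4) was in none of the 4 and in 0.0152% of all windows. These are matches of letters and were not tested for binding.

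Pltp was near the floor in vehicle cells and well above it in all treated cells. Its log2 expression was 4.16, 4.03, 4.62 and 4.53 on vehicle replicates 1 to 4. With TCDD it was 7.92, 7.92, 7.49 and 8.19 on replicates 1 to 4, the first pair being equal to the last deposited digit. With Cl-BBQ it was 8.22, 8.16, 8.50, 8.27 and 8.18 on replicates 1 to 5. Replicate 3 was the lowest TCDD array and replicate 3 the highest Cl-BBQ array, and the lowest treated array lay 2.87 above the highest vehicle array. The group means were 4.33 ± 0.29 (SD, n = 4) with vehicle, 7.88 ± 0.29 (SD, n = 4) with TCDD and 8.26 ± 0.14 (SD, n = 5) with Cl-BBQ. The difference from vehicle was 3.55 ± 0.16 SE for TCDD, 11.7-fold with a 95% interval from 9.26 to 14.8. For Cl-BBQ it was 3.93 ± 0.15 SE, 15.3-fold with an interval from 12.2 to 19.1. Array values compress differences near the floor (4.31, the median of all values), where the vehicle mean of Pltp lay. In a sorted bulk sample, more cells with the RNA and more RNA per cell cannot be told apart.

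Asb2 was low in vehicle cells, and all vehicle arrays lay above the floor. Its log2 expression was 5.09, 5.03, 4.59 and 4.66 on vehicle replicates 1 to 4. It was 8.30, 8.21, 8.13 and 7.82 on TCDD replicates 1 to 4. The 5 Cl-BBQ arrays gave 7.97, 8.45, 8.28, 8.54 and 8.25. The lowest treated array, TCDD replicate 4, was 2.73 above the highest vehicle array. The means were 4.84 ± 0.25 (SD, n = 4), 8.11 ± 0.21 (SD, n = 4) and 8.30 ± 0.22 (SD, n = 5) with vehicle, TCDD and Cl-BBQ. The difference from vehicle was 3.27 ± 0.15 SE for TCDD, 9.65-fold (95% interval 7.71 to 12.1). It was 3.46 ± 0.14 SE for Cl-BBQ, 11.0-fold (95% interval 8.87 to 13.6).

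Myo1f had the smallest rise of the 3 and the closest replicates. Its log2 expression was 5.10, 5.34, 5.36 and 5.60 on vehicle replicates 1 to 4. The TCDD arrays gave 8.14, 7.87, 8.05 and 7.99, and the Cl-BBQ arrays 8.08, 8.05, 8.28, 8.24 and 8.23. All treated arrays lay at least 2.27 above the highest vehicle array. The means were 5.35 ± 0.21 (SD, n = 4), 8.01 ± 0.11 (SD, n = 4) and 8.18 ± 0.11 (SD, n = 5). The difference from vehicle was 2.66 ± 0.11 SE for TCDD, 6.32-fold (95% interval 5.37 to 7.45), and 2.83 ± 0.10 SE for Cl-BBQ, 7.09-fold (95% interval 6.07 to 8.28). Its residual SD over the 3 groups was 0.14, against a median of 0.20 over all tested genes, while those of Pltp (0.24) and Asb2 (0.23) were above that median.

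**Figure D1:**
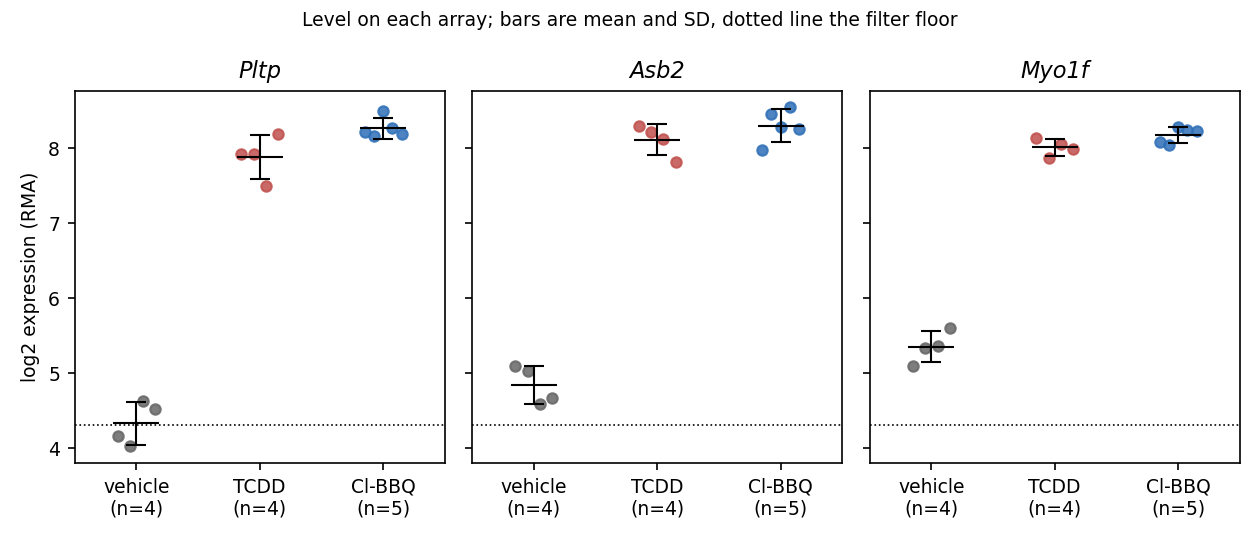
Log2 expression (RMA) of Pltp, Asb2 and Myo1f on each of the 13 arrays by group, with each point 1 array, bars the mean and SD, and the dotted line the filter floor at 4.31. The 9 treated arrays lie above all 4 vehicle arrays for each gene, and the TCDD and Cl-BBQ arrays overlap. Levels are not compared between genes, which have different probes.

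All 3 genes had every treated array above every vehicle array with either ligand. Over all tested genes this held for 6.31% with TCDD and 6.08% with Cl-BBQ. By limma with Benjamini-Hochberg adjustment, 3.21% of tested genes were called higher with TCDD and 5.31% with Cl-BBQ. Nothing is read from these shares for the members, since the same contrasts chose them. By size, Pltp, Asb2 and Myo1f ranked 4, 6 and 10 of 12710 among rises with TCDD, and 6, 7 and 14 with Cl-BBQ.

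Within groups, some arrays were high or low for 2 of the genes together and others were not. Vehicle replicates 1 and 2 held the lower values of both Pltp and Myo1f and the higher values of Asb2, and replicates 3 and 4 the reverse. Pltp and Myo1f lay on the same side of their group mean on all 4 vehicle arrays, on 4 of 5 Cl-BBQ arrays and on 1 of 4 TCDD arrays. Deviations from the group mean over the 13 arrays had a Pearson correlation of 0.34 for Pltp with Myo1f. It was -0.54 for Pltp with Asb2 and -0.22 for Asb2 with Myo1f. Over the 9 treated arrays alone these were 0.10, -0.27 and 0.25, all given as a description. TCDD replicate 4 was the highest TCDD array for Pltp and the lowest for Asb2. Cl-BBQ replicate 3 was the highest Cl-BBQ array for both Pltp and Myo1f, while Cl-BBQ replicate 4 was the highest for Asb2.

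The comparison of Cl-BBQ with TCDD was not used to choose the genes, although it shares the treated arrays with the contrasts that were. All 3 means were higher with Cl-BBQ, and none of the differences passed the test. Pltp differed by 0.38 ± 0.15 SE, 1.30-fold, with a 95% interval from 0.06 to 0.70 on the log2 scale (limma, unadjusted p = 0.023, adjusted p = 0.70). Of its 20 pairs of 1 Cl-BBQ and 1 TCDD array, 18 had the higher value with Cl-BBQ. Asb2 differed by 0.19 ± 0.14 SE, with an interval from -0.12 to 0.49 (limma, adjusted p = 0.90), and 15 of 20 pairs were higher with Cl-BBQ. Myo1f differed by 0.17 ± 0.10 SE, with an interval from -0.06 to 0.39 (limma, adjusted p = 0.88), and 17 of 20 pairs were higher with Cl-BBQ. The exact two-sided permutation test over the 126 splits of the 9 treated arrays gave p = 0.048 for Pltp, 0.25 for Asb2 and 0.079 for Myo1f. Adjusted over the 3 genes by Benjamini-Hochberg these were 0.12, 0.25 and 0.12 (exact permutation test), where the smallest raw p the design allows is 0.016. The upper ends of the intervals correspond to 1.63-fold for Pltp, 1.41-fold for Asb2 and 1.31-fold for Myo1f. A larger absolute difference between the ligands was seen in 3.63% of tested genes for Pltp, 21.9% for Asb2 and 26.2% for Myo1f. Between the ligands 0.0236% of tested genes were called by limma, namely Gzma, Il7r and Nqo1, all higher with Cl-BBQ and named after their values were seen. Leaving out each array in turn gave 0 to 5 calls between the ligands. For Gzma (granzyme A) there were 8 arrays and for Nqo1 10 arrays that ended the call when left out, and the adjusted p reached 0.15 for both without Cl-BBQ replicate 2. The call of Il7r was not followed array by array, and it too was lost in the fits with 0 calls. All Cl-BBQ arrays lay above all TCDD arrays for 1.03% of tested genes and for none of the 3.

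Textbook AhR targets gave a wider spread of differences between the ligands than the 3 genes. The list held 8 targets, of which 5 were tested. Of the 5, Tiparp alone was above the floor on all vehicle arrays. The others passed the filter through their treated arrays, with 0 vehicle arrays above the floor for Cyp1b1 and Ahrr, 1 for Cyp1a1 and 2 for Nqo1, so that a count of rises among the 5 supports nothing. Tiparp, an ADP-ribosyltransferase, rose by 1.33 ± 0.14 SE with TCDD and by 1.94 ± 0.13 SE with Cl-BBQ (limma, adjusted p of 2.5e-05 and 1.8e-07). Cyp1a1, a cytochrome P450 and the best known AhR target, was 3.23, 4.05, 4.35 and 3.96 on vehicle replicates 1 to 4 and 5.76, 5.76, 4.58 and 5.32 on TCDD replicates 1 to 4. It was 6.61, 7.09, 7.40, 6.96 and 6.86 on the Cl-BBQ arrays, all above the TCDD arrays. Its vehicle mean lay below the floor, where array values bound the level only from above, so no size is given for its rise over vehicle. The group means were 5.35 with TCDD and 6.98 with Cl-BBQ, and the ligands differed by 1.63 ± 0.26 SE (limma, adjusted p = 0.051, and 0.049 without vehicle replicate 1 or 3). Nqo1, a quinone reductase, differed by 1.08 ± 0.16 SE between the ligands (limma, adjusted p = 0.039). Cyp1b1, a further cytochrome P450, differed by 0.94 ± 0.19 SE (adjusted p = 0.22), Tiparp by 0.62 ± 0.13 SE (adjusted p = 0.28) and Ahrr, the AhR repressor, by 0.22 ± 0.18 SE (adjusted p = 0.92). Whether the 3 genes differ from these targets in their response to the ligands was not tested.

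**Figure D2:**
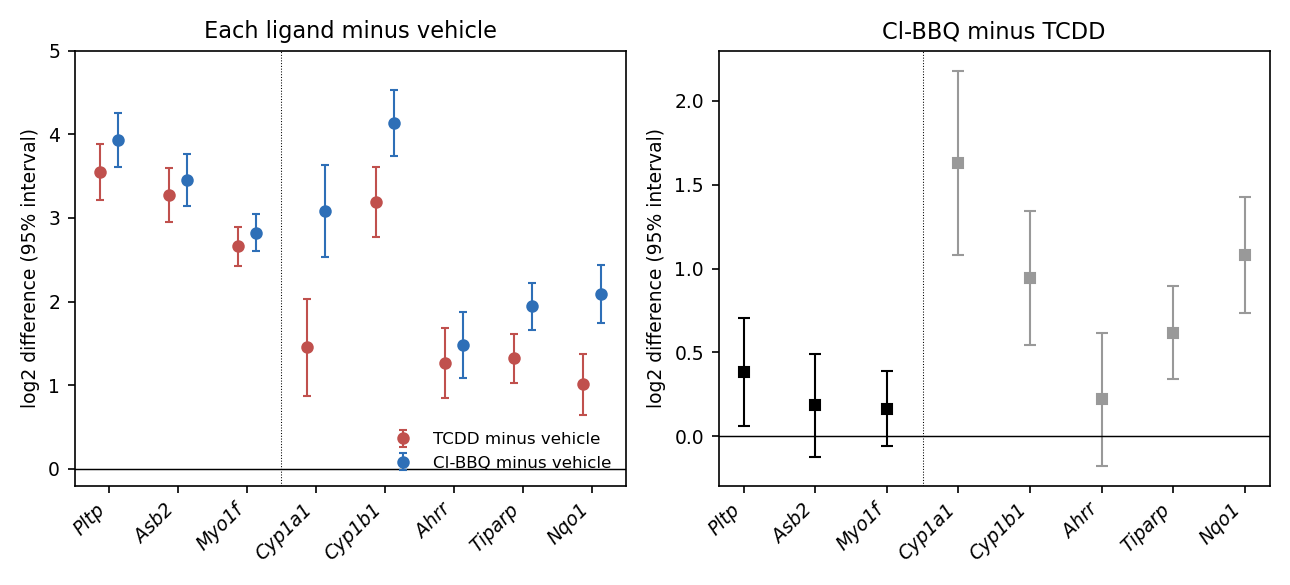
Log2 differences with 95% intervals from the limma model for the 3 genes and the 5 tested AhR targets. The left panel shows TCDD and Cl-BBQ each minus vehicle, in which the vehicle means of Cyp1a1, Cyp1b1 and Ahrr lay below the floor. The right panel shows Cl-BBQ minus TCDD, where Pltp, Asb2 and Myo1f lie at 0.38, 0.19 and 0.17 and Cyp1a1 at 1.63.

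The genes whose arrays followed each member most closely were found by the root mean square difference over the 13 arrays, after subtracting each gene's vehicle mean. Predicted genes, clones and receptor segments were left out of the closest 4. For Pltp they were Gzmb (0.37), which encodes granzyme B, Cyp1b1 (0.40), Asb2 (0.49) and Gzma (0.50), against a median of 3.15 over all tested genes. For Asb2 they were Itgae (0.41), the CD103 chain of a receptor for E-cadherin, Cxcr6 (0.47), a chemokine receptor, Pltp (0.49) and Cyp1b1 (0.53), against a median of 2.82. For Myo1f they were Sytl2 (0.23), which encodes a Rab27-binding protein of secretory vesicles, Cxcr6 (0.24), Ifitm3 (0.31), an interferon-inducible membrane protein, and Itgae (0.33), against a median of 2.31. Pltp and Asb2 were thus in each other's closest 4. Ranked over all tested genes with none left out, Myo1f was at 11 for Pltp and 8 for Asb2. In the ranking for Myo1f, Asb2 was at 14 and Pltp at 25. The measure follows mainly the size of the rise, so genes with like rises are close by construction. The vehicle mean of Cyp1b1 (3.68) lay below the floor, so the size of its rise and its distances are uncertain.

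In all, 109 genes related to the 3 members were listed by role, 99 had a probe set and 66 were tested. With TCDD, 2 rose and 2 fell (6.06%, against 6.71% of all tested genes called by limma, 3.21% higher and 3.5% lower). With Cl-BBQ, 7 rose and 2 fell (13.6%, against 11.3% of all tested genes, 5.31% higher and 6.03% lower). An unadjusted p under 0.05, used below for lists with no call, was reached by 18.0% of all tested genes with TCDD, 23.0% with Cl-BBQ and 6.41% between the ligands. Between the ligands none of the 66 was called by limma. The median log2 difference of the listed genes was -0.0033 with TCDD and 0.014 with Cl-BBQ, beside -0.00089 and -0.0064 over all tested genes. Over both directions together, the shares called were near those of all tested genes. By direction this did not hold with Cl-BBQ, where 7 rose and 2 fell while falls were the larger share of all tested genes. Of these 7, 4 were among the 8 tested partners and targets of LXR described below.

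Around Pltp, none of its 5 listed relatives of the LBP and BPI family, lipid-binding proteins of related fold, passed the filter. Of 11 tested genes that handle lipoprotein lipid, none was called with TCDD by limma (4 at an unadjusted p under 0.05). Lcat, of that list, was at 0.46 with TCDD (adjusted p = 0.060, and 0.023 without TCDD replicate 4) and -0.04 with Cl-BBQ (adjusted p = 0.92). It had 2 vehicle arrays above the floor. With Cl-BBQ 1 rose, Abca7, a lipid transporter, by 0.38 ± 0.11 SE (adjusted p = 0.032). Each of 6 arrays ended that call when left out, vehicle replicate 3 most (adjusted p = 0.10). Among 8 tested partners and targets of LXR, none was called with TCDD by limma (4 at an unadjusted p under 0.05), and the median difference was 0.18. With Cl-BBQ 4 of the 8 rose and none fell, with a median of 0.27, where 5.31% of all tested genes were called higher. Rxra, the partner receptor of LXR, was 5.43, 5.17, 5.51 and 4.77 on vehicle replicates 1 to 4 and 5.64, 6.24, 6.06, 5.89 and 5.74 on the Cl-BBQ arrays, without overlap. It rose by 0.69 ± 0.17 SE (limma, adjusted p = 0.014). Mylip, a ligase that degrades the LDL receptor, rose by 0.46 ± 0.12 SE (adjusted p = 0.019), Lpcat3, a phospholipid acyltransferase, by 0.40 ± 0.10 SE (adjusted p = 0.019) and Srebf1, a regulator of lipid synthesis, by 0.37 ± 0.11 SE (adjusted p = 0.046). Mylip was not called without Cl-BBQ replicate 5 or vehicle replicate 1 or 3 (adjusted p of 0.0502, 0.073 and 0.071). Lpcat3 was not called without Cl-BBQ replicate 5 or vehicle replicate 1 or 4 (0.0501, 0.073 and 0.061), and for Srebf1 each of 9 arrays ended the call, vehicle replicate 4 most (0.15). Abcg1, a lipid exporter and LXR target, was at -0.29 with TCDD (adjusted p = 0.16) and 0.07 with Cl-BBQ (adjusted p = 0.78). Abca1 and the LXR gene Nr1h3 were below the filter, and the other LXR gene, Nr1h2, had no probe set naming it alone. Neither LXR gene was thus tested.

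Around Asb2, no listed gene of the ligase or the family was called. Of 17 other Asb genes 7 were tested, with 1 at an unadjusted p under 0.05 with either ligand and a median difference of -0.15 with TCDD and -0.12 with Cl-BBQ (limma). The 9 tested subunits and enzymes of the cullin 5 ligase had medians of -0.02 and -0.03, with 0 and 2 at an unadjusted p under 0.05 (limma). Cul5, the scaffold itself, was at 0.06 with TCDD (adjusted p = 0.82) and 0.01 with Cl-BBQ (adjusted p = 0.98). Of 4 tested genes of reported ASB2 substrates none was called with either ligand (limma). An unadjusted p under 0.05 was reached by 1 with each ligand, Jak2 with TCDD and Flna with Cl-BBQ. Jak2 was at 0.25 ± 0.10 SE with TCDD (adjusted p = 0.16) and 0.12 ± 0.09 SE with Cl-BBQ (adjusted p = 0.49). Tcf3 was at 0.09 and 0.03 with TCDD and Cl-BBQ, and Kmt2a at -0.37 and -0.30. Flna, the filamin of blood cells, was at -0.21 ± 0.12 SE with TCDD (adjusted p = 0.40) and -0.32 ± 0.11 SE with Cl-BBQ (adjusted p = 0.098, and 0.047 without vehicle replicate 3). These are RNA levels and say nothing of the protein amounts that a ligase sets. Of 12 tested Notch pathway genes, in which Asb2 is a reported target, 1 rose with TCDD and none with Cl-BBQ (2 at an unadjusted p under 0.05, limma). The 1 was Rbpj, the DNA-binding partner of Notch, at 0.62 ± 0.17 SE (adjusted p = 0.047), a call that each of 11 arrays ended when left out, TCDD replicate 2 most (adjusted p = 0.14). It was also not called with the mean of its probe sets in place of the brightest (0.36, adjusted p = 0.11). With Cl-BBQ it was at 0.47 (adjusted p = 0.089, and 0.020 without vehicle replicate 2).

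Around Myo1f, 4 of 7 listed class I myosins were tested. None was called with TCDD by limma (1 at an unadjusted p under 0.05). With Cl-BBQ Myo1g, a class I myosin of lymphocyte membranes, rose by 0.59 ± 0.17 SE (adjusted p = 0.042), which each of 10 arrays ended when left out, vehicle replicate 3 most (adjusted p = 0.14). Without vehicle replicate 2 it was also called with TCDD (adjusted p = 0.028). Of 13 tested other myosins, 1 rose and 2 fell with each ligand. Myo10, a myosin of filopodia, was 5.02, 4.87, 4.57 and 5.18 on vehicle replicates 1 to 4, 5.97, 5.80, 5.80 and 6.17 with TCDD and 6.05, 6.19, 6.24, 6.04 and 6.26 with Cl-BBQ, with every treated array above every vehicle array. It rose by 1.02 ± 0.13 SE with TCDD (limma, adjusted p = 1.5e-04) and by 1.24 ± 0.12 SE with Cl-BBQ (adjusted p = 6.8e-06). Myo5a, a cargo transporter, fell by 0.55 with TCDD (adjusted p = 0.020) and by 0.59 with Cl-BBQ (adjusted p = 0.0061). The fall of Myo5a with TCDD was ended by each of 5 arrays when left out, vehicle replicate 1 most (adjusted p = 0.071). The other falls were of Myo9a with TCDD (by 0.68, adjusted p = 0.036), ended by each of 6 arrays (vehicle replicate 1 most, 0.12), and of Myo18a with Cl-BBQ (by 0.44, adjusted p = 0.014), lost without vehicle replicate 4 (0.051).

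**Figure D3:**
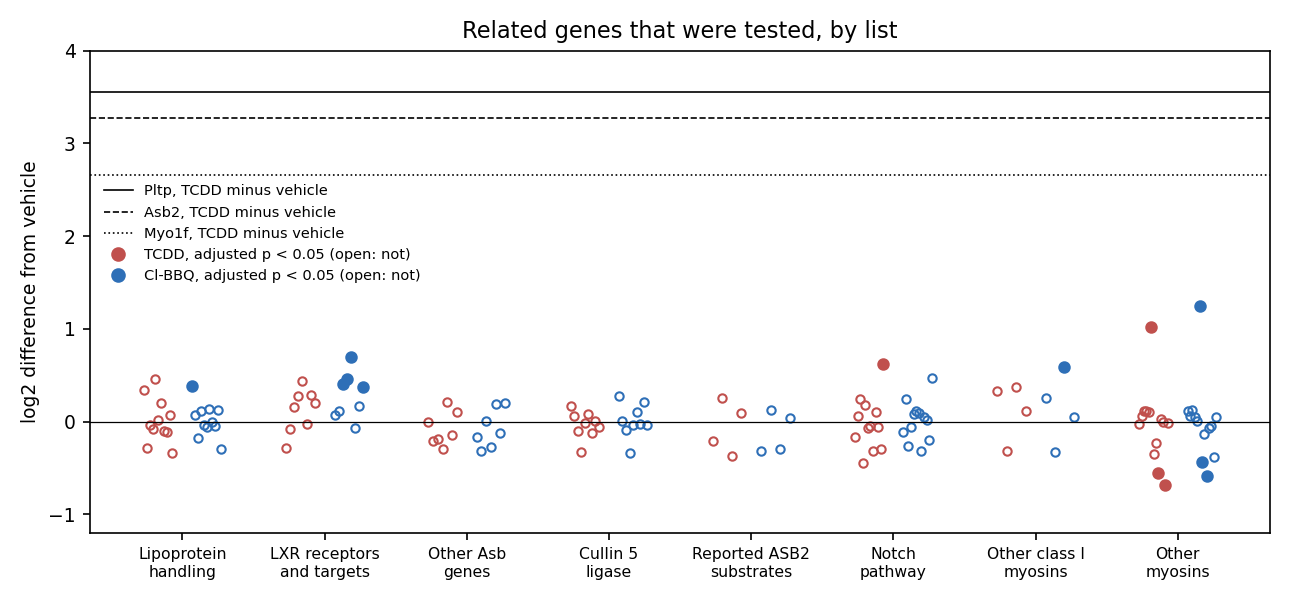
Log2 difference from vehicle of every tested gene in 8 lists of related genes, with TCDD in red and Cl-BBQ in blue, filled where the limma adjusted p was under 0.05. The horizontal lines mark the TCDD differences of Pltp, Asb2 and Myo1f at 3.55, 3.27 and 2.66, and the highest listed gene is Myo10 with Cl-BBQ at 1.24.

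The genes beside the members on the chromosome were examined by a rule added after the members' values were known, namely the 3 nearest protein-coding genes on each side in the RefSeq order of GRCm38.p6. Of these 18 genes 15 had a probe set and 12 were tested. With TCDD 3 of the 12 rose and none fell, where 3.21% of all tested genes were called higher and 3.5% lower (limma). With Cl-BBQ 3 rose and 1 fell, where 5.31% of all tested genes were called higher and 6.03% lower. Ctsa, next to Pltp, encodes the lysosomal protease cathepsin A. Its log2 expression was 9.79, 9.92, 9.73 and 10.04 on vehicle replicates 1 to 4, 10.70, 10.74, 10.66 and 10.75 with TCDD and 10.88, 10.66, 10.80, 10.86 and 10.83 with Cl-BBQ. All treated arrays were above all vehicle arrays, and Ctsa rose 1.79-fold with TCDD (log2 difference 0.84 ± 0.09 SE, limma adjusted p = 3.2e-05) and 1.91-fold with Cl-BBQ (0.94 ± 0.08 SE, adjusted p = 3.0e-06). Neurl2, the next gene on the same side, rose by 0.89 ± 0.24 SE with TCDD (adjusted p = 0.036) and by 0.85 ± 0.23 SE with Cl-BBQ (adjusted p = 0.023). Its vehicle arrays were uneven, at 6.18, 6.41, 6.44 and 5.18 on replicates 1 to 4. Leaving out each array gave rises of 0.60 to 1.02 with TCDD and 0.56 to 0.98 with Cl-BBQ. Each of 5 arrays ended the TCDD call of Neurl2 when left out, TCDD replicate 4 most (adjusted p = 0.11), and Cl-BBQ replicate 1 ended the Cl-BBQ call (0.051). Pcif1, on the other side of Pltp, was at -0.02 with TCDD (adjusted p = 0.96) and 0.04 with Cl-BBQ (adjusted p = 0.89). Mmp9, the third gene on that side, had 0 vehicle arrays above the floor and passed the filter through its treated arrays. It was not called with TCDD (limma, adjusted p = 0.56) or Cl-BBQ (adjusted p = 0.060, and 0.036 or 0.048 without Cl-BBQ replicate 2 or 3).

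No tested neighbour of Asb2 was called by limma. Otub2, a deubiquitinase, was at -0.18 with TCDD (adjusted p = 0.35) and -0.24 with Cl-BBQ (adjusted p = 0.13), and Fam181a was at -0.06 and 0.04. Beside Myo1f, Adamts10, a protease of the extracellular matrix, was 6.25, 5.90, 6.20 and 6.13 on vehicle replicates 1 to 4, 6.41, 6.89, 6.81 and 6.50 with TCDD and 6.70, 6.60, 6.76, 7.03 and 6.96 with Cl-BBQ. It rose by 0.53 ± 0.13 SE with TCDD (limma, adjusted p = 0.025) and by 0.69 ± 0.13 SE with Cl-BBQ (adjusted p = 0.0017). The TCDD call was lost without TCDD replicate 2 or 3 or vehicle replicate 2 or 4 (adjusted p of 0.086, 0.082, 0.087 and 0.054). Zfp101, the third gene away on that side, fell by 0.81 with Cl-BBQ (adjusted p = 0.0037) and was at -0.55 with TCDD (adjusted p = 0.075, and 0.043 without Cl-BBQ replicate 4). Zfp414, on the other side of Myo1f, was at 0.15 with TCDD and 0.09 with Cl-BBQ without passing (adjusted p of 0.58 and 0.69).

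**Figure D4:**
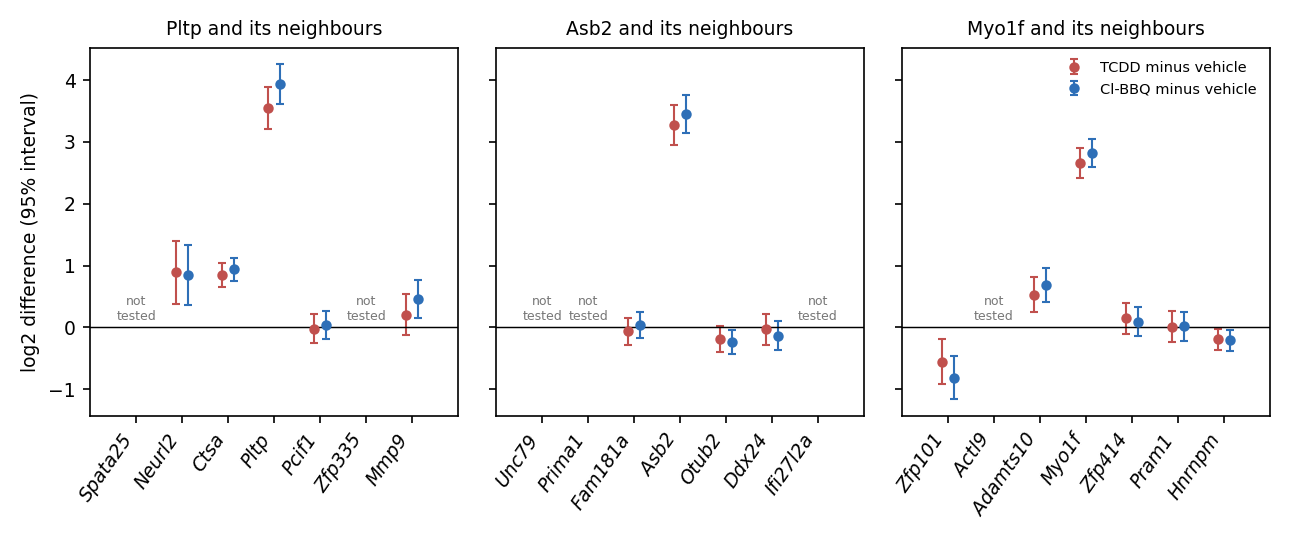
Log2 difference from vehicle with 95% intervals for each member and the 3 protein-coding genes on each side of it in genome order, TCDD in red and Cl-BBQ in blue. Ctsa and Neurl2 lie between 0.84 and 0.94 beside Pltp, while the members lie between 2.66 and 3.93.

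Pltp and Myo1f are also expressed by myeloid cells, so markers of other cell types are given here. Marker sums are sums of log2 levels over the named markers of a list. All 10 listed markers of CD4 T cells were tested, and their sums ran from 107.9 to 110.0 with vehicle, 111.1 to 111.3 with TCDD and 110.8 to 111.4 with Cl-BBQ. Cd4 was at 0.06 with either ligand, while Cd6 and Thy1 rose with both by 0.30 to 0.45. The calls of Cd6 with Cl-BBQ and of Thy1 with TCDD were ended by each of 5 and 7 arrays when left out, vehicle replicate 4 most for Cd6 (adjusted p = 0.092) and TCDD replicate 3 most for Thy1 (0.10). Of 12 macrophage and monocyte markers with a probe set, 6 had means below the floor in every group, among them Lyz2, Adgre1 and Marco. Their summed log2 levels ran from 50.0 to 50.9 with vehicle, 48.4 to 50.5 with TCDD and 48.8 to 50.8 with Cl-BBQ. Of the 5 tested, Cd68 alone rose, by 0.79 ± 0.20 SE with TCDD (limma, adjusted p = 0.024) and by 0.64 ± 0.19 SE with Cl-BBQ (adjusted p = 0.040). For TCDD each of 5 arrays and for Cl-BBQ each of 7 ended the call, vehicle replicate 3 most in both (adjusted p of 0.081 and 0.13). The part of myeloid RNA in the results for Pltp and Myo1f was not tested. Of 10 neutrophil markers 8 had means below the floor in every group, and the sums ran from 33.5 to 35.0, 33.3 to 35.9 and 33.8 to 36.4 with vehicle, TCDD and Cl-BBQ. The 4 natural killer cell markers, 2 of them below the floor in every group, summed to 15.3 to 15.9, 14.9 to 16.1 and 15.1 to 16.0. The CD8 T cell markers Cd8a and Cd8b1 summed to 10.6 to 11.1 with vehicle, 10.7 to 12.0 with TCDD and 11.3 to 12.3 with Cl-BBQ. Neither gene was called (limma, 1 at an unadjusted p under 0.05 with each ligand against vehicle). No marker of dendritic, B or platelet lists was called with either ligand (limma, 1 at an unadjusted p under 0.05 over both), nor was the single tested gamma-delta T cell marker, Sox13. The plasma cell markers and those of mast cells, basophils and eosinophils were below the floor in every group.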

How the data were processed

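RNA of sorted alloresponding CD4+ T cells was measured on 13 single-colour biotin-labelled arrays. The deposited values were log2 expression for 41345 probe sets, made with RMA per the submitters' processing notes (no version or software is named). RMA includes quantile normalization, so a shift of all transcripts one way cannot be seen. Array medians lay between 4.27 and 4.33, and correlations between arrays from 0.943 to 0.976. The number of arrays limits the precision. Groups and replicate numbers come from the source descriptions in the labels. Whether replicates were separate animals or pools is not stated, so the p-values measure the spread between these samples.

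The platform annotation gave 1 symbol for 23521 probe sets, several for 1814 and none for 16010, and no symbol of a member changed against the GRCm38.p6 gene table. Where several probe sets named a gene, the brightest over the 13 arrays was used, which gave 22180 genes. The filter asked for 4 or more arrays above 4.31, the median of the whole table. A single model in limma 3.58.1 under R 4.3.3, with 3 group means and 10 residual degrees of freedom, was fitted to all 12710, with two-sided tests and Benjamini-Hochberg adjustment within each contrast. A gene was called at an adjusted p under 0.05, and SE and 95% intervals are from this model. The script was tested on simulated data.

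The members and lists were chosen with earlier results of these data known. Besides the members, the named genes were the 4 closest to each, up to 4 genes of each list with the smallest adjusted p against vehicle, the AhR targets and genes needed to describe a list. The genes beside the members and the per-gene accounts of Abcg1, Cul5 and the markers were picked later. Promoter windows are from RefSeq (GRCm38.p6), where all 3 members matched. No source used here names the array's build, so no probe coordinates are given. Alternatives were 2 normalizations, 2 filters, the mean over probe sets, 2 variance models, fits of 2 groups only, a replicate block and leaving out each array.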

Additional observations from a re-analysis of the deposited data

Results flagged for a closer look

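No group of arrays held an outlying value of Pltp, Asb2 or Myo1f. Among 42 groups examined (3 genes and 11 marker lists in 3 groups each), 4 held an array far from the others, and chance gives about 1 in 20. The summed CD4 T cell markers were 107.9 on vehicle replicate 3, with the next vehicle array at 109.9. The natural killer cell markers summed to 15.3 on vehicle replicate 1, with the next at 15.8. The single gamma-delta T cell marker Sox13 was 4.67 on vehicle replicate 1, with the next at 5.16. The mast cell, basophil and eosinophil markers summed to 25.2 on Cl-BBQ replicate 1, with the next at 23.9. The fits without each of these arrays are among those that set the leave-one-out ranges of the members given under the processing.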

How the results depend on the processing

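The differences of Pltp, Asb2 and Myo1f from vehicle kept their direction and moved by less than their residual SD under every alternative run. Leaving out each array in turn gave 3.45 to 3.68 for Pltp, 3.19 to 3.37 for Asb2 and 2.58 to 2.74 for Myo1f with TCDD. With Cl-BBQ it gave 3.83 to 4.03, 3.37 to 3.54 and 2.74 to 2.91. Between the ligands the ranges were 0.25 to 0.49 for Pltp (limma, adjusted p of 0.64 to 0.89), 0.09 to 0.27 for Asb2 and 0.12 to 0.21 for Myo1f, and none passed under any alternative. The number of tested genes called between the ligands (limma), 3 with all arrays, was 7 with array weights, 6 with a trended robust variance or after another quantile normalization, and 5 with a filter in 9 arrays or with the mean of probe sets. It was 0 with no filter, with the 2 groups only or with a replicate block, and 0 to 5 when each array was left out, with 815 at an unadjusted p under 0.05 with all arrays. Of the related genes, 4 were called with TCDD, and 2 with no filter or with the replicate block, and leaving out each array gave 1 to 4. With Cl-BBQ the count was 9, and 4 to 9 when each array was left out. Whether the replicate numbers mark a pairing is not stated. Same-numbered arrays of different groups had correlations of their deviations between -0.06 and 0.08, and differently numbered arrays had the same range. With the number as a replicate block over arrays 1 to 4, Pltp differed by 0.40 between the ligands (limma, adjusted p = 0.76), Asb2 by 0.20 and Myo1f by 0.15. For the other named genes over the 3 contrasts, 161 results kept their call or lack of a call under this block. A call was lost in 15 and gained in 1, in a fit that also leaves out Cl-BBQ replicate 5. Values near the floor, as those of Pltp in vehicle cells, limit how well a fold change is known.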
